A study of Homo sapiens with 6 samples.

Results

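The genes described here are those of the deposited list whose symbols fit a name pattern for cell cycle, DNA replication and mitosis families. The pattern takes symbols that start with MCM, CDC or E2F and a digit, with CDK, CENP, KIF, TOP2, AURK, BUB or HIST, with the letters of cyclins A, B, D and E, of DNA polymerases A, D and E, of replication factor C or of alpha, beta and gamma tubulin, and *PCNA*. It found 12 members among 1161 listed genes. The members were *MCM3*, *POLE3*, *CDC16*, *CENPX*, *HIST2H2AC*, *TUBA1B*, *TUBB4B*, *TUBBP6*, *TUBGCP2*, *KIF1B*, *CDK17* and *CDC73*. The deposited list holds only genes that the authors called different between the populations, so each member had to differ, and what remains to describe is the direction, the size, the level and the spread of the differences. Each family is thus covered only as far as the authors' call reached. Of 302 protein-coding genes of the human annotation whose current symbol, or earlier histone (HIST) symbol, fits the pattern, 11 were listed, or 3.64%. Among all 20046 protein-coding genes 951 were listed, or 4.74%. The remaining member, *TUBBP6*, is a pseudogene. No cyclin A, B, D or E, E2F, RFC, TOP2, AURK or BUB gene and no *PCNA* was among the listed genes, and their levels were not analysed here.

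The libraries were made from MDA-MB-231, a human triple negative breast cancer cell line, tagged with green fluorescence protein (GFP) and labelled with CellVue Claret (CV), a membrane dye that is thinned out as cells divide. Female C.B-17 SCID mice, 6 to 8 weeks old and without mature T and B cells, received the cells by the internal carotid artery, and cells were sorted from dissociated brain at day 28. Dormant cells (GFP+CV+) had kept the dye and proliferating cells (GFP+CV-) had lost it. There were 3 libraries of each population, and same-numbered libraries of both populations were sorted from 1 pool of mice, with 10 mice in pools 1 and 2 and 9 mice in pool 3. Both populations therefore shared the cell line, the tag, the labelling and the host, and were sorted by dye retention. The dye is a record of past division rather than of the cycle stage at sorting. In the paper dormant cells were a small minority of the isolated GFP+ cells, so the populations also differed in cell number. Over the listed genes a library held between 7978657 and 17928784 estimated counts, which is part of the library and not its depth. Listed genes with no count numbered 115, 119 and 127 in dormant libraries 1 to 3. In proliferating libraries 1 to 3 they numbered 15, 25 and 8.

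The cell cycle runs through phases of growth, DNA synthesis and chromosome segregation. Before DNA synthesis the MCM helicase is loaded on replication origins, and DNA polymerases then copy the strands while new histones are made to package them. In mitosis a spindle of tubulin polymers attaches to chromosomes at kinetochores, and the anaphase-promoting complex marks securin and cyclins for destruction so that sister chromatids part. A shared prefix does not always mean a shared role. Several genes with CDC, CDK, KIF or TUB names act mainly in transcription, vesicle transport or the general cytoskeleton.

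The replication genes *MCM3* and *POLE3*, the kinetochore gene *CENPX*, the tubulin genes *TUBA1B* and *TUBB4B* and the gamma-tubulin complex gene *TUBGCP2* fell in dormant cells, each by less than 2-fold with the authors' size factors, while *KIF1B*, *CDK17*, *CDC16*, *CDC73* and the pseudogene *TUBBP6* rose, each by more than 2-fold. By sign alone 49.6% of the listed genes were higher and 50.4% lower, and 42.8% were at least 2-fold higher and 23.7% at least 2-fold lower. In edgeR's quasi-likelihood test, 11 of the 12 members had an adjusted p-value under 0.05, of which 5 rose and 6 fell. The histone gene *HIST2H2AC* was the exception, with a dormant level 0.503 times the proliferating level and an adjusted p-value of 0.0581. The background is 99.7% of the 1161 listed genes past the same threshold, 49.6% higher and 50.0% lower in dormant cells, because the list was selected on these libraries, and the count of members is no independent evidence of a difference. The fitted log2 ratio of dormant over proliferating cells, given below with its standard error (SE), had a median of -0.44 over the 12 members and -0.33 over all listed genes. As the list was selected for a difference, these medians depend on how many genes rose and how many fell. By direction, the median was -0.55 for lower members against -0.96 for lower listed genes. For higher members it was 1.38, against 1.70 for higher listed genes. With the adjustment set to 20046 protein-coding genes instead of the listed genes, 3 listed genes passed, or 0.258%, and none of the 12 members did, their adjusted p-values from the same edgeR test running from 0.0556 for *KIF1B* to 1. The unadjusted p-value was under 0.05 for 11 members, and DESeq2 and limma each called 12 over the listed genes. With the pool as a replicate block edgeR called 11 members and 94.5% of the listed genes.

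All 12 members kept 1 direction in the 3 pools, as did 99.8% of the listed genes, and kept it under each of the 14 alternatives of scaling, filter, tool, block, adjustment and left-out library. Only the 3 other scalings could have changed a direction. The adjustment reused the ratios of the main fit. The filter, the tools, the block and the left-out libraries kept the authors' size factors, under which the groups did not overlap. The sizes of the changes depended on scaling in both directions. With the libraries scaled to equal totals of the listed genes, the median of all listed genes moved by 0.29 on the log2 scale, and *MCM3*, *TUBA1B*, *POLE3*, *CENPX* and *TUBB4B* no longer passed the threshold. With median-of-ratios scaling over the listed genes it moved by -0.58, *TUBBP6* no longer passed and *HIST2H2AC* did. The contrast of less than 2-fold lower and more than 2-fold higher did not hold there, since the higher members ran from 0.65 to 1.47, with *CDC73* at 0.65, *CDC16* at 0.70 and *CDK17* at 0.74, and the lower members from -1.58 to -0.98. Relative to the median of all listed genes, the lower members lay between -0.67 and -0.07 and the higher members between 1.56 and 2.43 on the log2 scale with the authors' size factors. No listed gene had a ratio between -0.28 and 0.51, and the median lay at the edge of the lower genes. The distances of lower and higher members from it are thus not comparable in size. The authors' size factors are used below. Of the calls over all listed genes, 49.8% were higher in dormant cells with the authors' size factors, 60.8% with equal totals and 37.2% with median-of-ratios scaling.

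**Figure D1:**
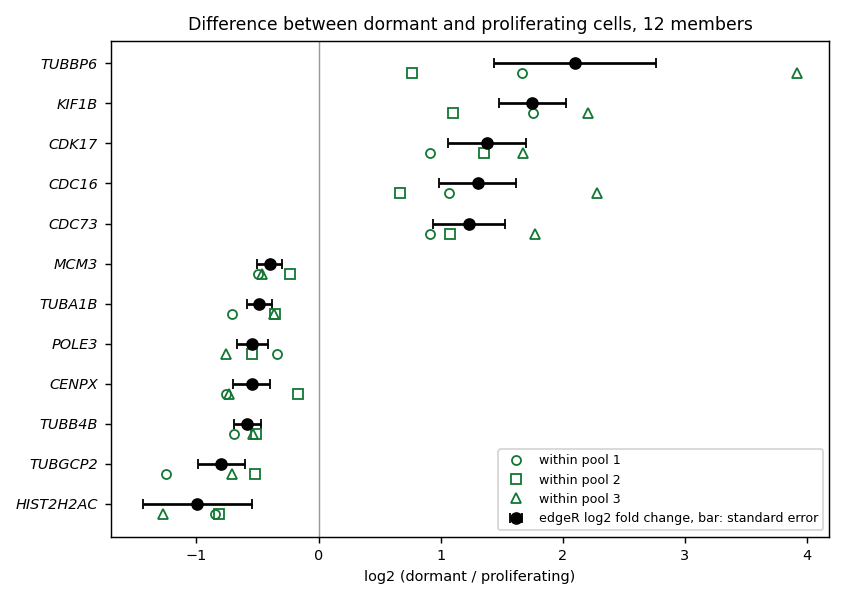
Log2 ratio of dormant to proliferating cells for the 12 members, ordered by size. Filled points with bars are the edgeR log2 ratio and its standard error, and open symbols are the ratios within pools 1, 2 and 3. The 5 higher members lie between 1.23 and 2.10 and the 7 lower members between -0.99 and -0.40, and no pool crosses zero.

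Among the replication genes, *MCM3* and *POLE3* fell. *MCM3* encodes a subunit of the MCM2-7 helicase that unwinds DNA at the replication fork, and is found at bases 52264014 to 52284881 of chromosome 6, minus strand (GRCh38, as are all gene positions here). Proliferating libraries 1 to 3 held 25579, 23891 and 27312 normalized read counts of it, and dormant libraries 1 to 3 held 18165, 20274 and 19810. The groups did not overlap. The means were 25594 ± 1710 (SD, n = 3) and 19416 ± 1108 (SD, n = 3), and the log2 ratio of -0.40 (SE 0.10, adjusted p-value 0.00793) was the smallest of the members in size. The dormant level was thus 0.759 times the proliferating level. *POLE3* encodes a histone-fold subunit of DNA polymerase epsilon, the leading strand polymerase, and also of a chromatin remodelling complex, and lies on chromosome 9 from 113407235 to 113410675. Proliferating libraries held 13040, 14230 and 14113 normalized read counts and dormant libraries 10310, 9771 and 8350, again without overlap. *POLE3* fell by 0.54 on the log2 scale (SE 0.13, adjusted p-value 0.00643), and its decrease ran from 0.34 in pool 1 to 0.76 in pool 3. For *MCM3* the ratio was closest to zero in pool 2, at -0.24 on the log2 scale.

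The kinetochore gene *CENPX* fell, and the histone gene *HIST2H2AC* had lower values that did not pass the test. *CENPX* encodes a small histone-fold protein that works at the kinetochore and with the Fanconi anaemia helicase FANCM in DNA repair, and lies on chromosome 17 from 82018702 to 82024107. It stood at 12061, 10119 and 11855 normalized read counts in the GFP+CV- libraries and 7148, 9001 and 7121 in the GFP+CV+ libraries. The gap between the populations was 1118, close to the SD of 1078 in dormant and 1066 in proliferating cells, and *CENPX* fell by 0.55 on the log2 scale (SE 0.15, adjusted p-value 0.0100). Pool 2 showed the smallest difference, with a log2 ratio of -0.17 against -0.75 and -0.74 in pools 1 and 3. *HIST2H2AC*, now named *H2AC20*, is a single-exon gene for a replication-dependent histone H2A on chromosome 1 from 149886918 to 149887411. In normalized read counts, the proliferating libraries stood at 557, 481 and 663 and the dormant libraries at 309, 273 and 274, so the dormant mean of 285 ± 20.8 (SD, n = 3) stood at 0.503 times the proliferating mean of 567 ± 91.6 (SD, n = 3). The populations did not overlap, but the edgeR test gave a log2 ratio of -0.99 and an SE of 0.44, and the call depended on the tool. Adjusted p-values were 0.0581 with edgeR, 0.121 with edgeR and the replicate block, 0.00675 with limma and 0.000544 with DESeq2. Messenger RNAs of this histone class mostly end in a stem-loop rather than a poly(A) tail, while Smart-seq2 primes on poly(A), so the level concerns the transcripts that the protocol captured.

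The promoters of the lower members that hold a CCAAT box, which recurs in promoters of cell cycle genes, are shown. In the RefSeq promoter table for GRCh38.p14, with 250 bases before and 50 after each start, 10 of the 12 members matched by symbol or by earlier symbol, and *TUBBP6* and *CDC73* did not. The 300-base windows were searched on both strands for the CCAAT box (CCAAT), to which NF-Y binds, for E2F sites (TTTCCCGC, TTTGGCGC, TTTCGCGC or TTTGCCGC), for the cell cycle genes homology region (TTTGAA or TTCGAA) and for the E-box (CACGTG) of MYC and related factors. No match overlapped a match of another motif. A CCAAT box was found in 6 of the 10 promoters, 4 of the 7 lower and 2 of the 3 higher members, against 35.6% of 27305 promoters of the same length. E2F letters were found in *MCM3* and *CDC16*, against 3.27% of all promoters, the homology region in *POLE3* and *TUBB4B*, against 16.8%, and the E-box in *CDC16* and *POLE3*, against 7.27%. The promoters of *MCM3* (chr6:52284693-52284992, minus strand), *CENPX* (chr17:82022829-82023128, minus strand), *TUBB4B* (chr9:137241037-137241336, plus strand) and *HIST2H2AC* (chr1:149886668-149886967, plus strand) are those of the lower members that hold CCAAT boxes, and are given 5′ to 3′ on the gene's strand with all 4 kinds of motif in capitals, on either strand.
MCM3: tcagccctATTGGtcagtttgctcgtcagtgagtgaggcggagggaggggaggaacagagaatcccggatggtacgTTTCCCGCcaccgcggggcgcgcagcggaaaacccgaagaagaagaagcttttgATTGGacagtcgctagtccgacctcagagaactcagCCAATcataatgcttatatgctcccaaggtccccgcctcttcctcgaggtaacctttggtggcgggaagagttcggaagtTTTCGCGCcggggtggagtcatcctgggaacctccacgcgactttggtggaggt
CENPX: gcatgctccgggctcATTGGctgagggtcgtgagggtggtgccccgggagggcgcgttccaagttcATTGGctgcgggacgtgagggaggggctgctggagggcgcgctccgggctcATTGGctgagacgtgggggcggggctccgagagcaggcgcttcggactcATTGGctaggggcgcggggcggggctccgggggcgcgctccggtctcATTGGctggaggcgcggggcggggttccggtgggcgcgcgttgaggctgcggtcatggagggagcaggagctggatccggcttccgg
TUBB4B: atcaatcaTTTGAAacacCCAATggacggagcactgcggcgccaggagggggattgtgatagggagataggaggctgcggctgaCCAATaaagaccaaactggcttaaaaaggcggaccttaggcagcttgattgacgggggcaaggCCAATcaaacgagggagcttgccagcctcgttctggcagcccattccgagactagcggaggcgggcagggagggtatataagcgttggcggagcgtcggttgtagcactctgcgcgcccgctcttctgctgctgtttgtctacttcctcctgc
HIST2H2AC: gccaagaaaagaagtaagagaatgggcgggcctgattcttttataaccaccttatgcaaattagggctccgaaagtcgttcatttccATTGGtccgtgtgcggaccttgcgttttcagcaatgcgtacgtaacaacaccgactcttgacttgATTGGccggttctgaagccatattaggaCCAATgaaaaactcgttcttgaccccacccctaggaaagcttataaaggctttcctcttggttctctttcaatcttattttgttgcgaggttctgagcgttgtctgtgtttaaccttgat
*CENPX* carried 5 CCAAT boxes, all on the opposite strand (ATTGG as printed), with 47 to 51 bases from each to the next. *MCM3* carried 3 CCAAT boxes and 2 E2F sites, of which the one nearer the start begins at base -4. *TUBB4B* and *HIST2H2AC* carried 3 CCAAT boxes each. Positions count from the RefSeq start, which can differ from the gene bounds given here, taken from GENCODE. The whole *CENPX* window lies within the bounds given for that gene. These matches describe the letters in the windows, and occupancy by a factor was not measured.

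The listed tubulin genes other than the pseudogene fell, as did a gamma-tubulin complex gene, and *TUBA1B* was the most abundant member. *TUBA1B* encodes a ubiquitous alpha tubulin, a partner in the dimer of which microtubules are built, and lies on chromosome 12, minus strand, from 49127782 to 49131397. Normalized read counts of the proliferating libraries were 214681, 174444 and 173192, and those of the dormant libraries 131607, 135951 and 134340. The dormant libraries lay within a narrow band (SD 2196, or 1.64% of the mean), below all proliferating libraries, of which replicate 1 was the highest. *TUBA1B* fell by 0.48 on the log2 scale (SE 0.10, adjusted p-value 0.00549), and by 0.38 without proliferating replicate 1. *TUBB4B*, a beta tubulin gene on chromosome 9 from 137241287 to 137243707, stood at 63012, 53464 and 50386 normalized read counts with the dye lost and 39022, 37561 and 34781 with it kept. It fell by 0.58 (SE 0.11, adjusted p-value 0.00419) on the log2 scale, and the within-pool log2 ratios lay between -0.69 and -0.51. *TUBGCP2* encodes a component of the gamma-tubulin complex, which nucleates microtubules at the centrosome, and lies on chromosome 10 from 133278635 to 133318823. Proliferating libraries held 14854, 14293 and 15894 normalized read counts and dormant libraries 6244, 9958 and 9740, with dormant replicate 1 the lowest. *TUBGCP2* fell by 0.80 on the log2 scale (SE 0.19, adjusted p-value 0.00676), and by 0.61 without dormant replicate 1.

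*TUBBP6* went the other way. It is a processed pseudogene of beta tubulin, a single block of 1332 bases on chromosome 7 from 55645620 to 55646951. In normalized read counts, the proliferating libraries stood at 178, 245 and 75.6 and the dormant libraries at 565, 416 and 1156. Every dormant library was above every proliferating library, but the means of 166 ± 85.2 (SD, n = 3) and 712 ± 392 (SD, n = 3) had the widest relative spread of the members. The rise was 4.29-fold, a log2 ratio of 2.10 (SE 0.66, adjusted p-value 0.0157), and without dormant replicate 3 it was 1.56 with an adjusted p-value of 0.0513. Within pools the log2 ratio was 1.66, 0.76 and 3.92. The whole of its annotated transcript aligned to *TUBB*, the gene of the main beta tubulin, with 91.8% identity, and *TUBB* was not analysed here. The count of *TUBBP6* was between 0.150% and 0.458% of the count of *TUBB4B* in proliferating libraries and between 1.11% and 3.33% in dormant libraries.

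Several members shared sequence or exons with other genes. The counts include reads that map to several places, and how such reads were divided is not given in the sources used here. Counts of *TUBBP6*, *TUBA1B*, *TUBB4B* and *TUBGCP2* were not whole in any of the 6 libraries, as for 16.6% of all listed genes, whereas those of *MCM3* and *CDC16* were whole in all 6. An antisense RNA listed as *AC011603.2*, annotated as *TUBA1B-AS1*, shares 43.96% of the exon bases of *TUBA1B*. Its count was between 68.1% and 70.0% of that of *TUBA1B* in each library and its log2 ratio was -0.49 (SE 0.11), against -0.48 for *TUBA1B*. Likewise *FAM166A*, on the opposite strand, shares 6.09% of the exon bases of *TUBB4B*, stood at 6.71% to 7.28% of its count, and had a log2 ratio of -0.58 (SE 0.19). Smart-seq2 libraries carry no strand, so reads of overlapping genes on opposite strands cannot be told apart. *TUBA1B* aligned over 1335 bases to *TUBA1C* with 97.5% identity, and *HIST2H2AC* over 384 bases to *H2AC18* and to *H2AC19* with 95.3% identity, and these 3 genes were not among the listed genes. *KIF1B* and *TUBGCP2* matched other genes over short stretches, at most 231 and 132 bases among their best matches, and *CDC16*, *CDC73*, *CDK17*, *CENPX*, *MCM3* and *POLE3* matched none at 90% identity over 100 bases.

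**Figure D2:**
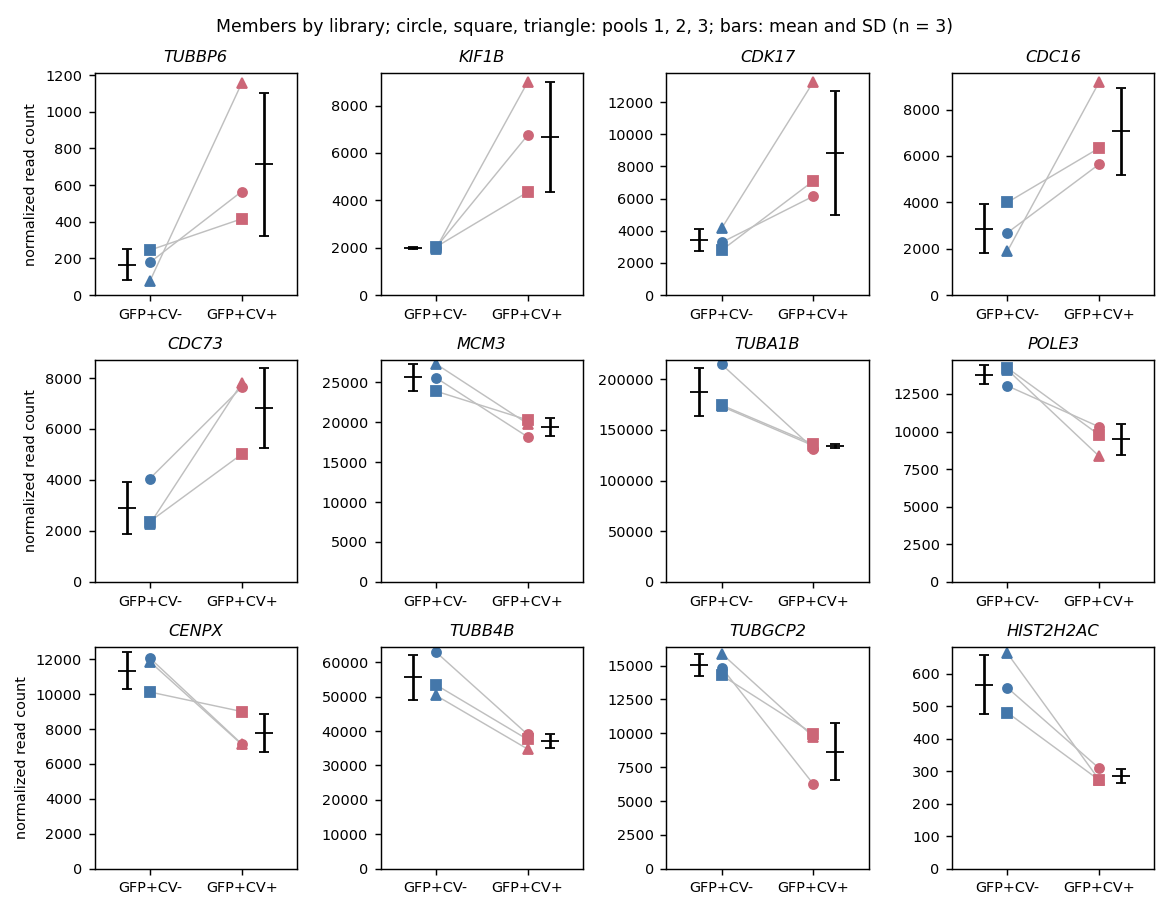
Normalized read counts of the 12 members in each library, from 0 on linear axes that differ between panels, with proliferating (GFP+CV-) libraries in blue and dormant (GFP+CV+) libraries in red. Symbols mark the pools, grey lines join the libraries of a pool, and black bars give the mean and SD (n = 3). In every panel the 3 dormant libraries lie wholly above or wholly below the 3 proliferating libraries.

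Of the higher members, *CDC16* is the only one that belongs to the cell division machinery proper. It encodes APC6, a structural subunit of the anaphase-promoting complex, and lies on chromosome 13 from 114234887 to 114272723. Normalized read counts of the proliferating libraries were 2689, 3999 and 1895, and those of the dormant libraries 5650, 6347 and 9201. *CDC16* rose 2.47-fold, a log2 ratio of 1.30 (SE 0.32, adjusted p-value 0.00697), and leaving out each library in turn gave 1.07 to 1.62. Proliferating replicate 2 was the highest of its population, and the log2 ratio within pool 2 was 0.67 against 2.28 in pool 3. Another subunit of the same complex, *ANAPC11*, which carries the RING domain that binds the ubiquitin-conjugating enzyme, fell by 0.38 on the log2 scale (SE 0.09, adjusted p-value 0.00591), with mean normalized read counts of 30441 ± 311 in proliferating and 23360 ± 734 in dormant cells (SD, n = 3 each). The count of *CDC16* was 6.29% to 13.0% of that of *ANAPC11* in proliferating libraries and 23.5% to 40.7% in dormant libraries. Both genes were selected for a difference on these libraries, in opposite directions, so this share had to differ. With equal totals the log2 ratio of *ANAPC11* was -0.09 (edgeR adjusted p-value 0.423), and its decrease was not called.

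*KIF1B*, *CDK17* and *CDC73* carry family names of motor, kinase and cell division genes, and their best known work lies outside the cell cycle. *KIF1B* encodes a kinesin that carries mitochondria and synaptic vesicle precursors along microtubules, and spans chromosome 1 from 10210570 to 10381603. Proliferating libraries held 1999, 2023 and 1943 normalized read counts and dormant libraries 6744, 4345 and 8986, so the coefficient of variation was 2.05% in proliferating and 34.7% in dormant cells. *KIF1B* rose 3.37-fold, a log2 ratio of 1.75 (SE 0.28), and had the smallest adjusted p-value of the members, 0.00322. *CDK17* encodes a kinase of the PCTAIRE group, found mostly in cells that no longer divide such as neurons, and lies on chromosome 12 from 96278261 to 96400480. It stood at 3269, 2781 and 4142 normalized read counts with the dye lost and 6148, 7098 and 13262 with it kept, with dormant replicate 3 far above the others. *CDK17* rose by a log2 ratio of 1.38 (SE 0.32, adjusted p-value 0.00632), and 0.96 without dormant replicate 3. *CDC73* encodes parafibromin, a tumour suppressor and subunit of the PAF1 complex that travels with RNA polymerase II, and spans chromosome 1 from 193121983 to 193254815. In normalized read counts, the proliferating libraries stood at 4055, 2369 and 2273 and the dormant libraries at 7639, 5012 and 7795, and it rose by a log2 ratio of 1.23 (SE 0.29, adjusted p-value 0.00673). The gap between the populations, 957, was less than the SD of either, 1002 in proliferating and 1564 in dormant cells.

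Higher and lower members differed in more than direction. The higher members varied more between replicates. Their coefficient of variation had a median of 34.7% in dormant and 34.6% in proliferating cells, against 7.28% and 9.40% for the lower members, and the same order was seen over all listed genes, at 31.4% and 28.8% for higher and 16.1% and 15.1% for lower genes. Dormant replicate 3 had the highest value of the dormant libraries for all 5 higher members and for none of the 7 lower members. Over the listed genes it was highest for 65.6% of higher and 22.7% of lower genes. Lower members were more abundant. The median of their mean normalized read count in proliferating cells was 15010, against 2861 for higher members, and 5217 and 810 over all lower and higher listed genes. Lower members had shorter genes, with spans from 494 to 40189 bases and a median of 3616, while the 4 coding higher members spanned 37837 to 171034 bases. Over the listed genes the median span was 16395 bases for lower and 36976 for higher genes. The members thus followed the division of the whole list in spread, abundance and span, and what part these had in the differences was not tested.

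**Figure D3:**
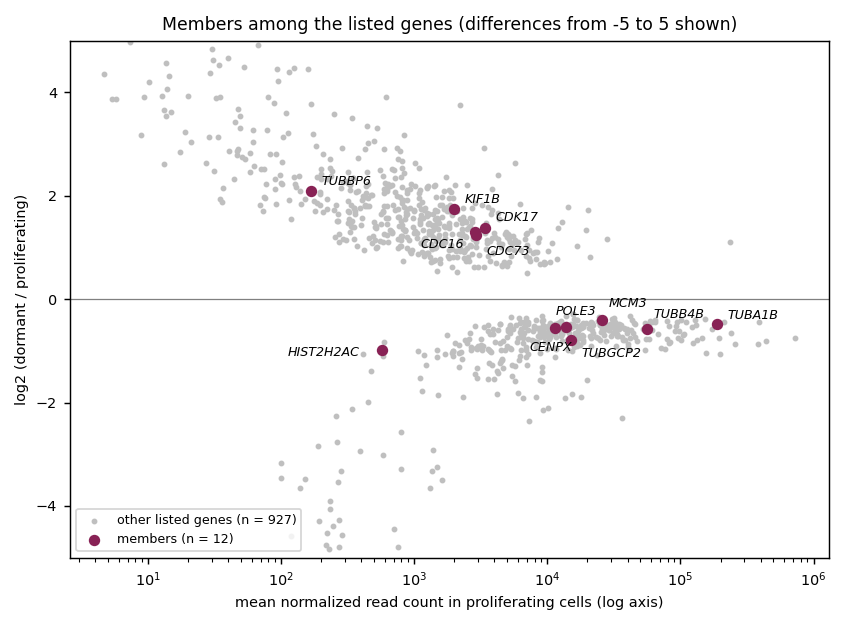
Log2 ratio of dormant to proliferating cells against the mean normalized read count in proliferating cells (log axis). Purple points are the 12 members and grey points other listed genes, 939 in all, and 222 listed genes beyond 5 in either direction are left out. The lower members other than *HIST2H2AC* lie among the abundant listed genes, with ratios between -0.80 and -0.40, and *HIST2H2AC* (567) and *TUBBP6* (166) are the least abundant members.

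Per kilobase of annotated exon, the mean level in proliferating (GFP+CV-) cells was 52445 normalized read counts for *TUBA1B*, 27305 for *TUBB4B*, 7410 for *CENPX*, 7022 for *MCM3* and 5291 for *POLE3*. It was 1148 for *HIST2H2AC*, 1061 for *TUBGCP2*, 723 for *CDC16*, 525 for *CDK17*, 276 for *CDC73*, 125 for *TUBBP6* and 105 for *KIF1B*. In dormant (GFP+CV+) cells *TUBA1B* remained the highest at 37484 and *KIF1B* the lowest at 354 per kilobase, and *CDC16* at 1785 and *CDK17* at 1366 stood above *TUBGCP2* at 611 and *HIST2H2AC* at 577. *CENPX* and *MCM3* in proliferating cells differed by less than their spread. The exon length counts all annotated transcripts, so a gene with many isoforms, such as *KIF1B*, is set low on this scale.

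Other cell cycle genes were taken from 5 lists of 276 genes, namely the cell cycle pathway, DNA replication, mitosis, tubulin with microtubule nucleation, and replication-independent histones. Of these, 15 genes were listed, 7 of them members, where 4.74% of all protein-coding genes were listed. All 15 passed the threshold over the listed genes, as did 99.7% of the listed genes, with 5 higher and 10 lower in dormant cells. The cell cycle pathway list had 9 of 125 genes listed, 5 higher and 4 lower. DNA replication had 2 of 48 and mitosis 1 of 65, all lower, tubulin had 3 of 33, all lower, and the histone list had none of 9. On none of the lists stood 5 members, *TUBBP6*, *KIF1B*, *CDK17*, *CDC73* and *HIST2H2AC*, and 4 of these were higher in dormant cells.

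Of the 8 listed genes of these lists whose names lie outside the pattern, 4 fell and 4 rose. *PTTG1* encodes securin, which holds separase inactive until anaphase, and stood at 14158, 19320 and 16142 normalized read counts in GFP+CV- and 10846, 7451 and 9283 in GFP+CV+ libraries. It fell by 0.85 on the log2 scale (SE 0.18, adjusted p-value 0.00532), the largest decrease among listed genes of the lists. *TYMS*, which encodes the thymidylate synthase that supplies thymidylate for DNA synthesis, stood at 4005, 3250 and 3823 normalized read counts with the dye lost and 2716, 2223 and 2046 with it kept. It fell by 0.67 (SE 0.21, adjusted p-value 0.0153), and without proliferating replicate 1 the adjusted p-value was 0.0505. With equal totals the log2 ratio of *TYMS* was -0.37 (edgeR adjusted p-value 0.155). *HDAC1*, a histone deacetylase that works with the retinoblastoma protein at E2F target genes, fell by 0.80 (SE 0.13), with mean normalized read counts of 37215 ± 4972 in proliferating and 21397 ± 1685 in dormant cells (SD, n = 3 each). *ANAPC11* was the fourth.

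The 4 higher list genes without such a name were *GSK3B*, *ATM*, *MDM2* and *TGFB2*. *ATM* encodes the kinase that signals DNA double-strand breaks, and *MDM2* the ubiquitin ligase that degrades p53. *ATM* stood at 831, 1734 and 1214 normalized read counts with the dye lost and 3579, 2057 and 4735 with it kept, and *MDM2* had 2579, 3727 and 2043 and then 6372, 4294 and 9192. Both were lowest in dormant replicate 2 among the dormant libraries and highest in proliferating replicate 2 among the proliferating libraries, so their log2 ratios within pool 2 were 0.25 and 0.20, against 1.30 or more in pools 1 and 3. *ATM* rose by a log2 ratio of 1.46 (SE 0.39) and *MDM2* by 1.25 (SE 0.34). *GSK3B*, a kinase that marks cyclin D and beta-catenin for degradation, rose by 1.69 (SE 0.35, adjusted p-value 0.00491), with mean normalized read counts of 578 ± 109 in proliferating and 1862 ± 572 in dormant cells (SD, n = 3 each). *TGFB2*, a growth factor of the TGF-beta family that arrests many epithelial cells, rose by 0.70 (SE 0.18, adjusted p-value 0.00781) with the authors' size factors. With median-of-ratios scaling the log2 ratio was 0.11 for *TGFB2* (edgeR adjusted p-value 0.607), 0.83 for *ATM* (0.0566) and 0.63 for *MDM2* (0.0656), and none of these was called.

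**Figure D4:**
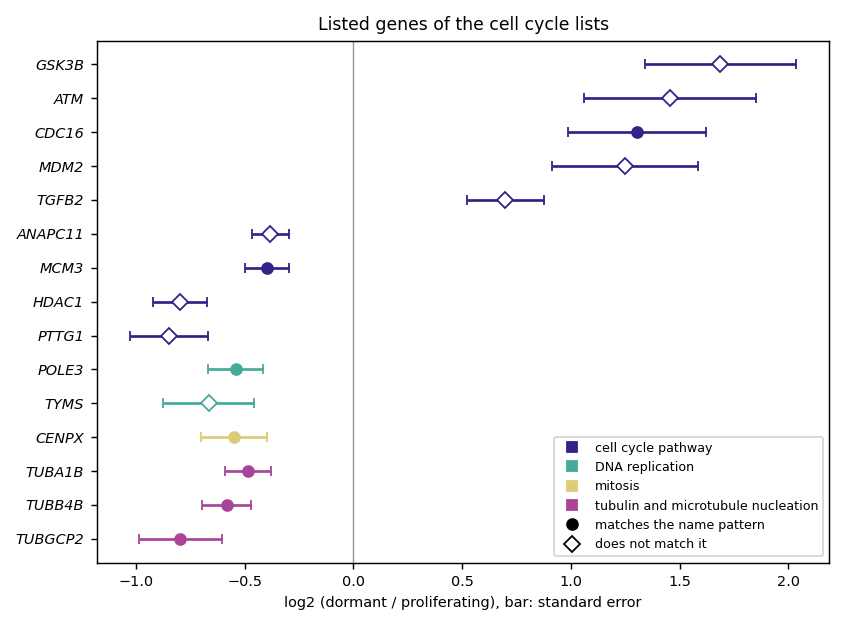
Log2 ratio of dormant to proliferating cells with its standard error for the 15 listed genes of the cell cycle lists, by list. Filled circles are the 7 members and open diamonds the 8 genes outside the name pattern. Genes of DNA replication, mitosis and tubulin lie below zero, and the cell cycle pathway holds 5 genes above and 4 below it.

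For all 12 members the dormant libraries lay wholly to one side of the proliferating ones, against 99.2% of the listed genes, 49.0% with dormant libraries above and 50.2% with dormant libraries below. A two-sided exact permutation test of 3 against 3 libraries cannot give a p below 0.1. Markers of the cell line and of other cells of the brain moved with the populations too. Of 8 genes fixed as marks of the breast cancer line, *KRT8*, *KRT18* and *CAV1* were listed, all 3 lower in dormant cells, with summed normalized read counts of 268507 to 302954 in proliferating and 143439 to 195804 in dormant libraries. Of 8 fibroblast and mural cell markers 5 were listed, all higher, with sums of 4558 to 7759 in proliferating and 44038 to 71335 in dormant libraries. The astrocyte list had 1 of 6 genes listed, *SLC1A3*, at 570 to 1335 in proliferating and 2570 to 4874 in dormant libraries. None of the 6 oligodendrocyte, 12 microglia and macrophage, 5 endothelial and 5 neuron markers of the short lists used here was listed. Other genes known from such cells were listed. Examples were chosen after their values were seen, and only among genes higher in dormant cells. *EMCN* of endothelium had a log2 ratio of 4.63 (SE 1.28) and *CLDN11* of oligodendrocytes 4.39 (SE 0.57). *CD4* had 6.35 (SE 0.49) and *F13A1* 2.53 (SE 0.61), both known from macrophages. Listed genes of such cells that were lower in dormant cells are not given here. The examples therefore give no direction for such cells as a whole. The host brain was of mouse, and the authors left out reads on mouse chromosomes, so the marker values are of reads assigned to human genes. Where those reads came from was not tested. The part of other cells in the members' differences was not tested, and in bulk libraries fewer cells of a kind and less RNA per cell cannot be told apart.

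**Figure D5:**
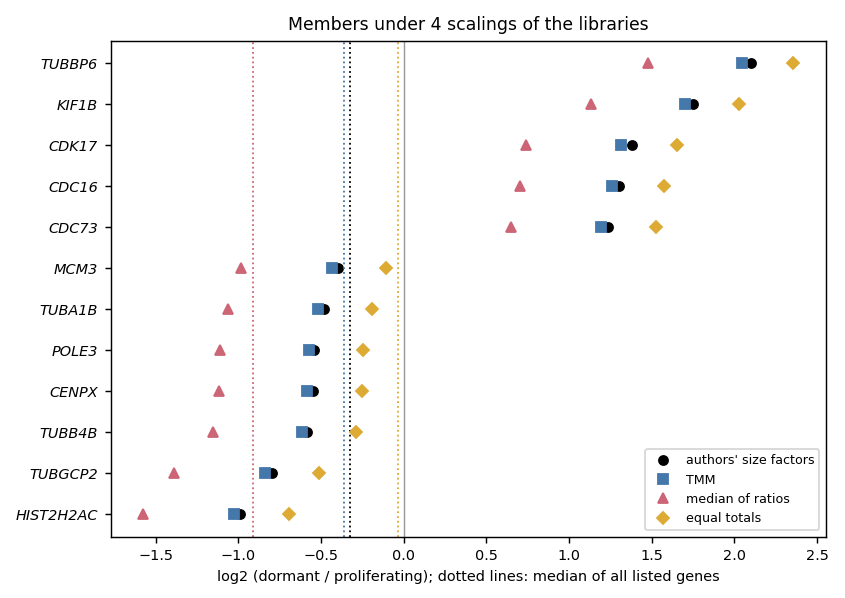
Log2 ratio of dormant to proliferating cells of the 12 members under the authors' size factors and 3 other scalings, with the median of all listed genes under each as a dotted line. All 5 higher members stay above zero and all 7 lower members below it, while equal totals bring *MCM3* to -0.11 and median-of-ratios scaling takes it to -0.98.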

How the data were processed

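Full-length cDNA of sorted cells was sequenced in 6 libraries, 3 of each population. The authors used Cutadapt for trimming, STAR 2.7 for alignment to human GRCh38.p12 joined with mouse GRCm38.p6, and Rsubread for counting, multi-mapping reads included, and left out reads on mouse chromosomes. The deposited estimated counts are not normalized and are partly fractional. The deposited normalized read counts are signal values, the rounded counts over a DESeq2 size factor for each library (0.724 to 1.38), which the authors made. The table used here lists genes that the authors called, and its columns of their means, fold changes, standard errors, test statistics and p-values were not used.

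Estimated counts were rounded and all 1161 listed genes were fitted with edgeR 4.0.16 (quasi-likelihood test, authors' size factors, population as the only term, two-sided, Benjamini-Hochberg adjustment over the listed genes, threshold 0.05, common dispersion 0.182). Dispersion comes from genes selected for a difference. The SE given for edgeR was derived from the test, as the size of the log2 ratio over the square root of its F statistic. DESeq2 1.42.0, limma 3.58.1 (log2 of normalized read count plus 1), 3 other scalings, a filter, a replicate block, left-out libraries and an adjustment for 20046 protein-coding genes were alternatives. The pairing comes from the shared pools of mice, and the correlations of same-numbered libraries' deviations over genes were 0.06, -0.02 and 0.001. The fits were also run on simulated counts in which most genes did not differ. The listed genes were all selected for a difference, so that run does not bear on the calls here. Coordinates and exon lengths are from GENCODE release 44 on GRCh38 (1157 of 1161 genes matched), copies were sought with BLAST 2.17.0 (at least 90% identity over 100 bases), and promoters are from RefSeq. Members and lists were chosen with earlier results of these data known. The genes named are all members, all listed genes of the 5 lists, and the listed cell line and astrocyte markers. Some genes that share sequence or exons with members are named too. *EMCN*, *CLDN11*, *CD4* and *F13A1* were added after their values were seen. Replicates are separate pools of mice.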

Additional observations from a re-analysis of the deposited data

How the results depend on the processing

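Directions of the 12 members and of the 8 other list genes held under all 14 alternatives, but only the 3 other scalings could have changed one. The rest kept the authors' size factors, under which the groups of these genes did not overlap. With equal totals, 6 members passed the threshold (1 of them lower in dormant cells), 3 list genes passed as lower, 372 of all listed genes passed as lower, and the members' median log2 ratio was -0.15. With median-of-ratios scaling that median was -1.02, 2 list genes and 346 of all listed genes passed as higher, and *TUBBP6*, *ATM*, *MDM2* and *TGFB2* did not pass. Equal totals lost *MCM3*, *TUBA1B*, *POLE3*, *CENPX*, *TUBB4B*, *ANAPC11* and *TYMS*. Each scaling moved the zero of the log2 ratio and also changed standard errors, and their parts in the lost calls were not tested. With the adjustment for 20046 protein-coding genes, 0 members and 0 list genes passed in either direction, and 3 of all listed genes did, all 3 higher and 0 lower. With each library left out in turn, 10 or 11 members passed and 1089 to 1135 of all listed genes, and the members' median lay between -0.48 and -0.39. *TUBBP6* was lost without dormant replicate 3 and *TYMS* without proliferating replicate 1. With the replicate block 11 members and 1097 listed genes passed, the members' median was -0.44, and no call of a member changed. A pseudocount of 10 in place of 1 moved no within-pool ratio by more than the spread between pools. Depth of the whole libraries is not known here, and 3 libraries per population limit the precision.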
